A study of Mus musculus with 12 samples.

Results

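The drug-metabolising cytochrome P450 genes of mouse liver are described here, as the genes of the Cyp1a, Cyp1b, Cyp2 and Cyp3a subfamilies. Members were the measured genes whose symbol is Cyp1a, Cyp1b, Cyp2 with a letter, or Cyp3a, followed by a number alone, with Cyp2c70 left out and at least 10 counts summed over the 12 libraries. Of 55359 genes in the count table, 57 had such a symbol and 48 reached the count minimum. The rule itself uses symbols and a count minimum and no difference between groups, while the family was picked with earlier results of these data known. The rule is one of names and not of function. It takes in Cyp2r1, which makes 25-hydroxyvitamin D, Cyp2u1, a hydroxylase of long-chain fatty acids, and Cyp2j genes, with the arachidonic acid epoxygenase Cyp2j5. It leaves out symbols that end in a letter, such as the Cyp3a41 pair.

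The livers were those of male mice of the strain C57BL/6NTac, in 3 groups of 4. NM-FGF19 mice were on a high-fat diet (HFD) and were given the NM-FGF19 mRNA, which encodes a non-mitogenic FGF19, an intestinal hormone that lowers bile acid synthesis in the liver. HFD control mice were on the same diet and were given Control-mRNA, and their count columns carry the name mOX40L. Lean mice were on normal chow and were given Control-mRNA as well. Every mouse, lean ones included, therefore carried lipid nanoparticles (LNPs) with an mRNA, and no untreated liver is among the samples. The doses were weekly for 6 weeks, and the livers were taken 24 hours after the last. One label gives 21 weeks of diet before dosing and another 28 weeks of feeding in all, and the mice are called 24 weeks old. The labels number the libraries of a group as replicates, and p-values measure the spread between these libraries.

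P450 enzymes are haem proteins of the endoplasmic reticulum that add an oxygen atom to drugs, pollutants, steroids, bile acids and fatty acids, with electrons from P450 oxidoreductase. Hepatocytes hold most of them, many in the zone around the central vein. The receptors CAR (Nr1i3), PXR (Nr1i2) and AhR switch on Cyp2b and Cyp2c, Cyp3a, and Cyp1a genes when they sense foreign compounds or endogenous ligands, and the pulses of growth hormone set apart the male and female patterns of rodent liver.

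The libraries held 23743415 to 33257260 counts, and the 48 genes took from 0.786% of them in lean 3 to 2.36% in HFD control 4. Levels are in CPM, a gene's counts brought to one common library total after TMM, edgeR's correction for composition. A floor of 3 counts equals 0.0792 to 0.153 CPM, and such limits cover counting error only. Of the 48 genes, 40 passed the filter on low counts and were tested among 15274 genes with edgeR's quasi-likelihood F test, and a gene is said to rise or fall at a Benjamini-Hochberg adjusted p under 0.05. Lean 3 stood apart. Its TMM factor was the lowest at 0.779, its P450 share was the lowest, and its summed level of acute phase and cytokine genes was 133000 CPM, against 26900 to 58600 CPM in the other lean libraries. That sum was 23500 to 26500 CPM in NM-FGF19 and 17800 to 25400 CPM in HFD control livers, below every lean library. Of the 15 tested genes of this list 7 fell and 1 rose with HFD control against lean, and 2 fell with NM-FGF19 against lean. The part of these genes in the P450 values was not tested.

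With NM-FGF19 against HFD control, 1 of the 40 genes rose and 0 fell. The one that rose was Cyp2c67. Over all tested genes, 0.282% rose and 0.151% fell in this comparison. At an unadjusted p under 0.05 the same edgeR test gave 6 genes higher and 6 lower, DESeq2 with adjustment called 1 higher and 3 lower (Cyp2c29, Cyp3a11 and Cyp3a59), and limma voom 1 and 0. Among all genes tested, DESeq2 called 175 higher and 114 lower and voom 28 and 19, beside 43 and 23 in the main test. The median log2 change of the 40 was 0.06, beside 0 over all genes tested. In 4 of the 40 the groups did not overlap, 2 with every NM-FGF19 library above and 2 with every one below, and 5.62% of all genes tested had groups apart.

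With HFD control against lean, 3 of the 40 genes rose (Cyp3a11, Cyp2c38 and Cyp3a59) and 5 fell (Cyp2c40, Cyp2c67, Cyp2d40, Cyp2f2 and Cyp2j9). Of all genes tested, 5.04% rose and 3.29% fell. The groups were apart in 9 of the 40, against 15.3% of all genes tested. The members moved by a median of 0.65 in absolute log2 change, beside 0.27 over all genes, and their signed median was -0.08. The wider movement was not particular to diet. The absolute medians were 0.43 beside 0.18 for NM-FGF19 against HFD control and 0.4 beside 0.22 for NM-FGF19 against lean. With NM-FGF19 against lean, 0 rose and 1 fell (Cyp2j9), beside 1.01% and 0.484% of all genes tested. The groups were apart in 5 of the 40 and in 10.3% of all genes. The unadjusted test gave 5 higher and 5 lower there, DESeq2 called 3 and 5, and voom 0 and 0. Among all genes tested, DESeq2 called 601 higher and 368 lower and voom 62 and 44, beside 154 and 74 in the main test. Each group of libraries enters 2 of the 3 comparisons, so these are not independent of each other.

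**Figure D1:**
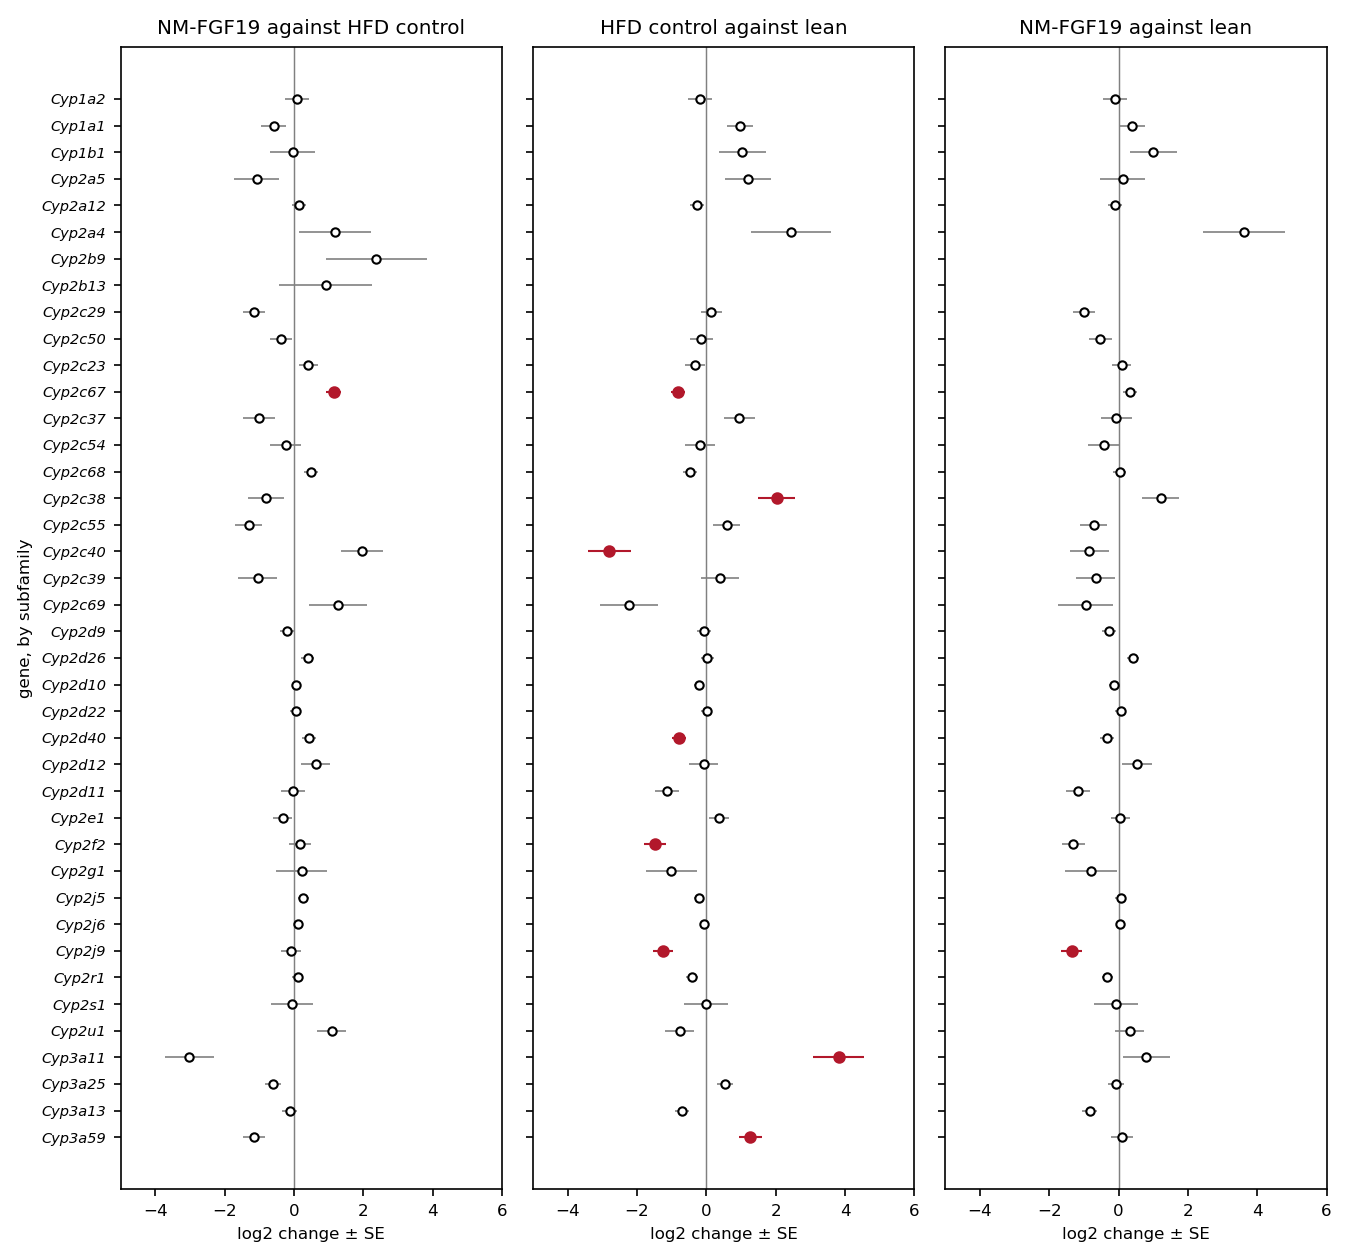
Log2 change with its standard error (x axis) of each tested P450 gene (y axis, by subfamily) in the 3 comparisons. Filled red points passed the adjusted p of 0.05: 1 gene in NM-FGF19 against HFD control, 8 in HFD control against lean and 1 in NM-FGF19 against lean. Cyp2b9 and Cyp2b13 have no point against lean, where their counts were 0.

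The 8 untested genes were Cyp2a22, Cyp2b10, Cyp2d34, Cyp2j8, Cyp2t4, Cyp3a16, Cyp3a44 and Cyp3a57. They averaged at most 0.192 CPM in NM-FGF19 livers and at most 0.427 CPM in lean livers. In HFD control livers they averaged at most 1.59 CPM, the value of Cyp2b10. The 9 genes with the symbol that missed the count minimum held 0 to 7 counts each over all libraries. Cyp1a1, the inducible hydroxylase of polycyclic hydrocarbons, and Cyp1b1 were tested at low levels, at most 6.16 CPM in any library.

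Per kilobase of transcript, Cyp2e1 led in every group, at 3440 CPM per kb in NM-FGF19, 4320 in HFD control and 3330 in lean livers. Cyp2e1 oxidises ethanol and paracetamol. Its level was 4880, 7400, 7560 and 5370 CPM in the NM-FGF19 libraries, 6630, 8750, 5300 and 11000 CPM in the HFD control libraries and 8640, 6520, 3850 and 5400 CPM in the lean libraries. The 3 ranges overlapped widely. The log2 change was -0.33 ± 0.28 for NM-FGF19 against HFD control (SE, adjusted p = 0.818) and 0.37 ± 0.28 for HFD control against lean (adjusted p = 0.45). The next places changed with the group. Cyp2d26 was second in NM-FGF19 livers at 516 CPM per kb, Cyp2d9 in HFD control livers at 557 and Cyp2f2 in lean livers at 659. Cyp3a11 stood at place 16 in NM-FGF19 livers, 3 in HFD control livers and 20 in lean livers.

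**Figure D2:**
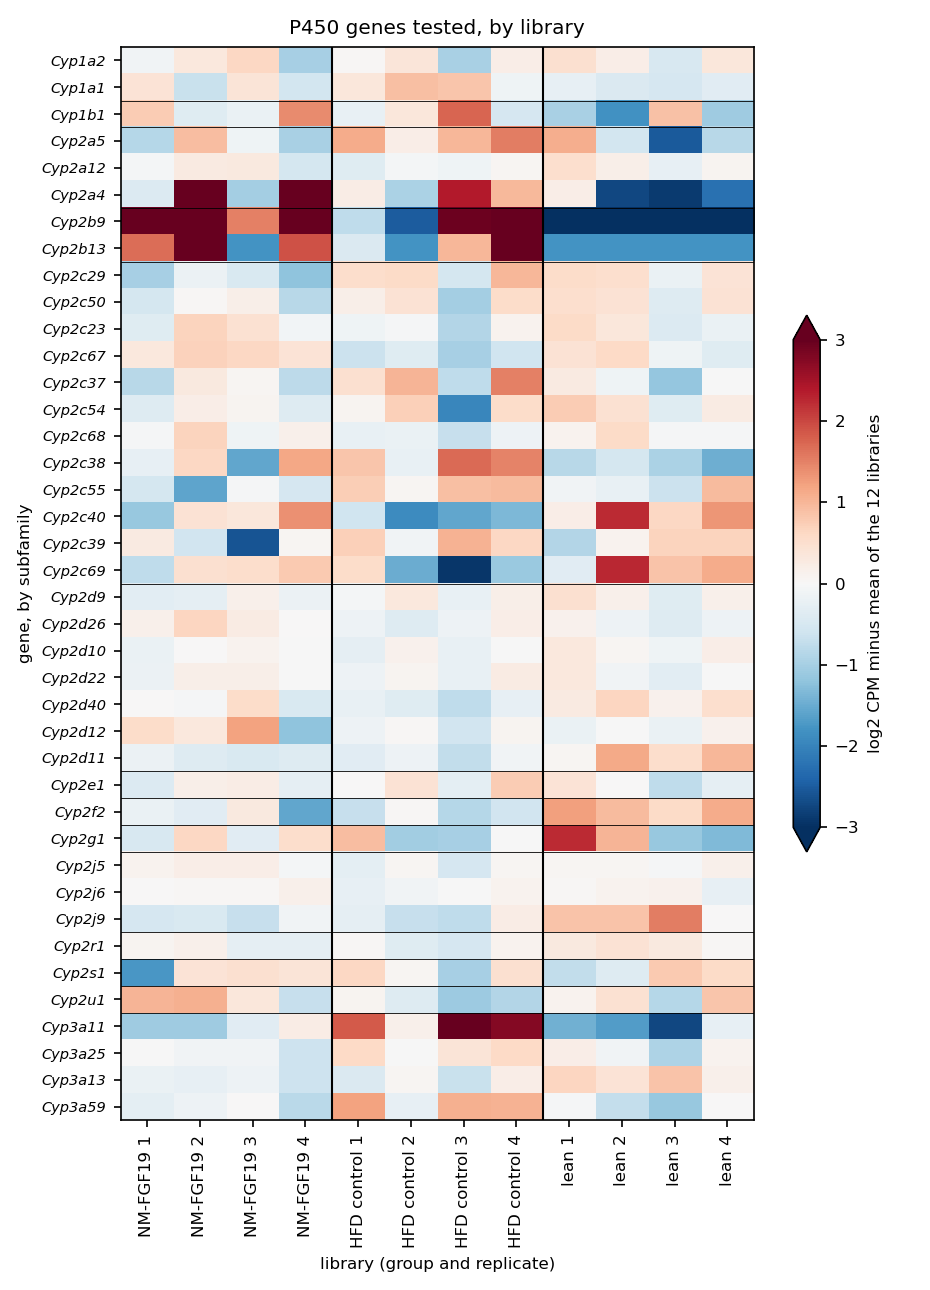
Log2 CPM (prior count 2) of each tested P450 gene minus its mean over the 12 libraries (colour, cut at -3 and 3), with libraries across and genes down by subfamily. Cyp2d9, Cyp2d10, Cyp2d22 and Cyp2j6 stay near 0 throughout, Cyp3a11 is highest in HFD control 3 and 4, and Cyp2b9, with 0 counts in lean livers, is high in NM-FGF19 2 and 4.

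The Cyp3a genes, whose human counterpart CYP3A4 oxidises a large share of drugs, held the largest called change with diet. Cyp3a11 is the main adult Cyp3a gene of mouse liver. It was at 102, 101, 168 and 251 CPM in NM-FGF19 livers, 764, 237, 2610 and 1450 CPM in HFD control livers and 78.2, 66.3, 31.9 and 181 CPM in lean livers. Every HFD control library was above every lean one, and 3 of the 4 were above every NM-FGF19 one. Cyp3a11 rose 14.1-fold with HFD control against lean (log2 3.82 ± 0.74, adjusted p = 0.0132). The call held in all 8 fits that left out 1 library of either group, with log2 3.19 without HFD control 3 and 4.45 without lean 4. With HFD control 3 and lean 3 both left out the log2 change was 2.93 and the adjusted p 0.0675. For NM-FGF19 against HFD control the log2 change was -3.02 ± 0.71, an 8.13-fold lower level, with an adjusted p of 0.121, so it is not counted as a fall. Without HFD control 3, the highest library of its group, the log2 change was -2.39. DESeq2 gave an adjusted p of 0.00154, and edgeR 0.046 without HFD control 2, the lowest library of its group, and between 0.155 and 0.407 without any other library of either group. Against lean, NM-FGF19 stood at 0.80 ± 0.67 (adjusted p = 0.595).

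Cyp3a59 and Cyp3a25 are the next genes along the chromosome from Cyp3a11. Cyp3a59 was at 13.2, 14.7, 16.4 and 9.26 CPM in NM-FGF19 livers, 37.7, 13.7, 34.3 and 33.2 CPM in HFD control livers and 15.8, 9.93, 7.34 and 16.3 CPM in lean livers. HFD control 2 lay among the other groups and the rest of its group well above them. Cyp3a59 rose with HFD control against lean (1.27 ± 0.33, adjusted p = 0.0342), a call lost without HFD control 1, 3 or 4 or lean 2 or 3 (adjusted p up to 0.0904). For NM-FGF19 against HFD control it was at -1.15 ± 0.32 (adjusted p = 0.218). Cyp3a25, a testosterone 6-beta hydroxylase, was at 315, 299, 299 and 208 CPM in NM-FGF19 livers, all below the 480, 318, 417 and 485 CPM of HFD control livers, and lean livers had 364, 296, 169 and 344 CPM. Its log2 change was -0.60 ± 0.23 for NM-FGF19 against HFD control (adjusted p = 0.438). Cyp3a25 and Cyp3a59 share 5.89% and 5.45% of their 101-base windows, about the length of a read, with another transcript. A small part of their reads may therefore fit another gene as well.

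Cyp3a13 lies apart on the same chromosome, with 121 coding genes between it and the nearest other Cyp3a gene described here, and had its highest mean in lean livers. Its levels were 149, 143, 152 and 110 CPM in NM-FGF19 livers, 125, 179, 107 and 196 CPM in HFD control livers and 267, 224, 306 and 190 CPM in lean livers. The NM-FGF19 libraries were all below the lean ones. The log2 change was -0.83 ± 0.21 for NM-FGF19 against lean (adjusted p = 0.0662) and -0.70 ± 0.21 for HFD control against lean (adjusted p = 0.0542), both short of the threshold. DESeq2 put them at 0.00693 and 0.0165. Cyp3a16, a fetal form of mouse liver, stayed at 0.17 CPM or less in every library.

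The 250 bases before the start of these 4 genes are shown because Cyp3a11, Cyp3a25 and Cyp3a59 had their highest mean in HFD control livers and Cyp3a13 did not. They are RefSeq sequences of build GRCm38.p6. Capitals mark the nuclear receptor half-sites AGGTCA and AGTTCA, which read TGACCT and TGAACT on the other strand. The windows are chr5:145879855-145880104 (minus strand), chr5:146009619-146009868 (minus strand), chr5:146079008-146079257 (plus strand) and chr5:137921620-137921869 (minus strand).
Cyp3a11: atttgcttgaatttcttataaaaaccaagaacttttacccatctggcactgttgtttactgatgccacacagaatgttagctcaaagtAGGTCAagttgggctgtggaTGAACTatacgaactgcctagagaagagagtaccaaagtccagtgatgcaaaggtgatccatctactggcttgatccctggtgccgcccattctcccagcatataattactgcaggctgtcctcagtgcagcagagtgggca
Cyp3a25: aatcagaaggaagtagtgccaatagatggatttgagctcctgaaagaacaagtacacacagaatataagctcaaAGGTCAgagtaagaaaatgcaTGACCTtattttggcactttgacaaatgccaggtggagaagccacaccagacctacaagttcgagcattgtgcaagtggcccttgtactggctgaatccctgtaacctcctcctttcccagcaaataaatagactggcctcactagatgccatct
Cyp3a59: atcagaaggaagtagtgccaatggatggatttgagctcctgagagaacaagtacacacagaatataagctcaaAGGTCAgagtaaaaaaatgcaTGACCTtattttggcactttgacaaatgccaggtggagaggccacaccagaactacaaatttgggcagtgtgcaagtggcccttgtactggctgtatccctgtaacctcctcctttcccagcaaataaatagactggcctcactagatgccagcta
Cyp3a13: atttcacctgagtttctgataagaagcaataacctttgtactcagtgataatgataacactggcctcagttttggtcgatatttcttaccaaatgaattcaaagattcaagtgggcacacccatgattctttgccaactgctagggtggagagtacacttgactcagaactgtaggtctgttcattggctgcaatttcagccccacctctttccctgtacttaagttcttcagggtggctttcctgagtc

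Cyp3a11 holds AGGTCA 162 bases and TGAACT 142 bases before its start. Cyp3a25 and Cyp3a59 hold AGGTCA at 176 and 177 bases and TGACCT at 155 and 156 bases. The paired half-sites lie on opposite strands with 14 bases between them in Cyp3a11 and 15 in both others, and Cyp3a13 has none in its window. Cyp3a57, an untested gene, also holds AGGTCA and TGACCT. Its means were 0.192 CPM in NM-FGF19, 0.175 CPM in HFD control and 0.0218 CPM in lean livers. They came from 23, 26 and 2 counts, too few to rank the HFD groups. Its level was 8.36-fold (95% limits 2.09 to 72.6) that of lean in HFD control livers. In NM-FGF19 livers it was 9.28-fold (2.29 to 81.2), and these limits cover counting error only. Cyp3a44, likewise untested, holds AGGTCA once, and Cyp3a16 has no such half-site in its window. One of these half-sites, on either strand, is found in 15 of the 41 P450 genes with a promoter in the table (36.6%) and in 24.1% of 27025 mouse promoters of the same length. AGGTCA alone is in 13.8% of those promoters and AGTTCA in 11.9%. A match is a description of letters and not a binding site.

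The Cyp2c genes, which oxidise drugs and arachidonic acid, did not move as 1 block. With HFD control against lean, Cyp2c38 rose and the gene next to it, Cyp2c67, fell. Cyp2c67 was at 188, 245, 235 and 204 CPM in NM-FGF19 livers, 98.5, 120, 76.3 and 101 CPM in HFD control livers and 206, 232, 139 and 120 CPM in lean livers. All NM-FGF19 libraries were above all HFD control ones, and the lean libraries spanned the gap. Cyp2c67 rose 2.21-fold with NM-FGF19 against HFD control (log2 1.14 ± 0.21, adjusted p = 0.0312) and fell with HFD control against lean (-0.82 ± 0.21, adjusted p = 0.0299). Leaving out any NM-FGF19 library, or HFD control 1, 3 or 4, put the first adjusted p between 0.0536 and 0.117, with log2 changes of 1.04 to 1.21. The second call was lost without HFD control 1, 3 or 4 or lean 1 or 2 (adjusted p up to 0.0909). NM-FGF19 and lean differed by 0.33 ± 0.21 (adjusted p = 0.462).

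Cyp2c38, for an arachidonic acid epoxygenase, is the neighbour of Cyp2c67. It was at 16.6, 30.7, 6.72 and 44.4 CPM in NM-FGF19 livers, 35.3, 16.9, 64.6 and 55.8 CPM in HFD control livers and 11.2, 13.7, 10.3 and 7.12 CPM in lean livers. HFD control was above lean throughout. NM-FGF19 3 was below every lean library, NM-FGF19 1 lay between the lean and HFD control ranges, and NM-FGF19 2 and 4 lay within the HFD control range. Cyp2c38 rose with HFD control against lean (2.03 ± 0.54, adjusted p = 0.0415). Of 8 fits that each left out 1 library of these groups, the call held in 1, without HFD control 2, and the others gave an adjusted p of up to 0.121.

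Cyp2c40 fell with HFD control against lean (-2.79 ± 0.61, adjusted p = 0.017). Its mean level was under 2 CPM, so it is named after its values were seen. It was at 0.341, 1.15, 1.07 and 2.24 CPM in NM-FGF19 livers, 0.528, 0.174, 0.24 and 0.284 CPM in HFD control livers and 0.958, 4.18, 1.32 and 2.18 CPM in lean livers. All HFD control libraries were below all lean ones. The call was lost without HFD control 3 or lean 2 (adjusted p up to 0.0517).

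On chromosome 19, Cyp2c67, Cyp2c68, Cyp2c40 and Cyp2c69 lie next to each other in that order. Their log2 changes for NM-FGF19 against HFD control were 1.14, 0.50, 1.95 and 1.27, and for HFD control against lean -0.82, -0.47, -2.79 and -2.23. Of these 8 values the first of each comparison and that of Cyp2c40 with diet passed the test. The 4 genes before them, Cyp2c55, Cyp2c29, Cyp2c39 and Cyp2c38, were at -1.31, -1.15, -1.05 and -0.81 for NM-FGF19 against HFD control, and at 0.59, 0.15, 0.39 and 2.03 for HFD control against lean. The last is the one of these that passed. Cyp2c55 and Cyp2c29 have 2 other coding genes between them, and Cyp2c29 with diet was at -0.06 without HFD control 4. After Cyp2c69 follow Cyp2c37, Cyp2c54 and Cyp2c50, at -1.01, -0.24 and -0.37 for NM-FGF19 against HFD control and 0.95, -0.18 and -0.14 with diet. Cyp2c54 and Cyp2c50 thus had the same sign in both comparisons. The pattern of signs was noticed in the values and carries no test, and the HFD control libraries enter both comparisons with opposite sign. Cyp2c67, Cyp2c68, Cyp2c40 and Cyp2c69 share 23.3%, 19.6%, 43.7% and 36.0% of their 101-base windows with another transcript, mostly with each other. The sources used here do not say how reads that match several copies were counted, and the split among these 4 is uncertain. Over all 48 genes the median share was 0.691%, and 19 shared none.

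**Figure D3:**
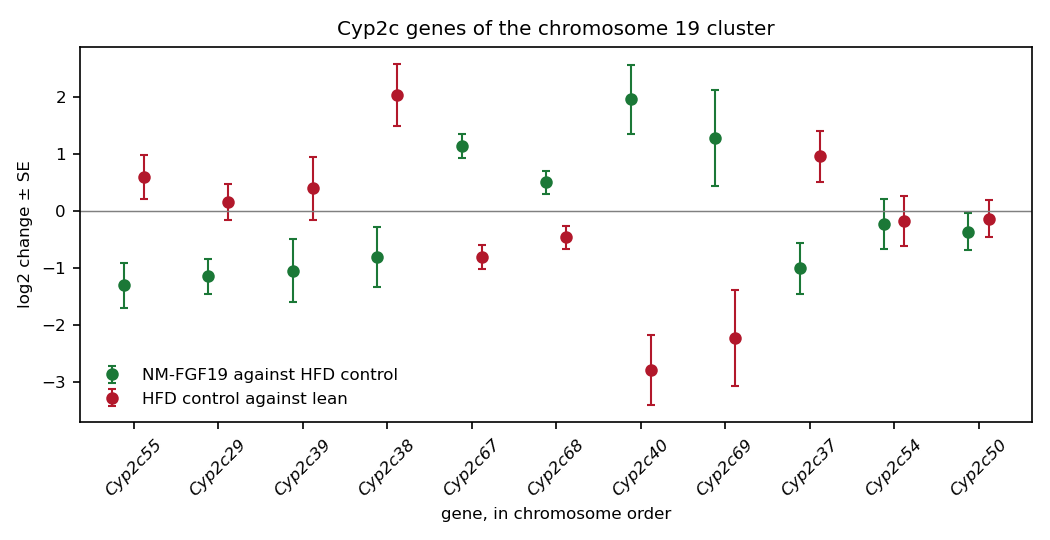
Log2 change with its standard error (y axis) of the Cyp2c genes in their order along chromosome 19 (x axis, not to distance), for NM-FGF19 against HFD control (green) and HFD control against lean (red). The 4 genes from Cyp2c67 to Cyp2c69 have positive green and negative red values, and the 4 before them the opposite signs. Cyp2c54 and Cyp2c50, at the right end, have negative values in both colours. HFD control libraries enter both colours.

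Cyp2c29, which CAR activators induce, was at 324, 569, 466 and 276 CPM in NM-FGF19 livers, 927, 961, 448 and 1290 CPM in HFD control livers and 944, 904, 555 and 851 CPM in lean livers. NM-FGF19 libraries lay low against both groups but for HFD control 3 and lean 3. The log2 change was -1.15 ± 0.31 against HFD control (adjusted p = 0.181) and -0.99 ± 0.31 against lean (adjusted p = 0.121). DESeq2 gave 0.0133 and 0.0267, and edgeR without lean 3 and HFD control 3 gave 0.0322 and 0.0392. Cyp2c55, another gene induced through CAR and PXR, was at 1.26, 0.577, 1.81 and 1.29 CPM in NM-FGF19 livers and 3.17, 1.94, 3.52 and 3.66 CPM in HFD control livers, with no overlap (-1.31 ± 0.40, adjusted p = 0.26). Cyp2c37 and Cyp2c54, for arachidonic acid hydroxylases, averaged 100 ± 39.1 and 105 ± 22.5 CPM in NM-FGF19 livers, 202 ± 113 and 125 ± 69.7 CPM in HFD control livers and 105 ± 37.9 and 142 ± 43.4 CPM in lean livers (SD, n = 4). Neither passed in any comparison.

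**Figure D4:**
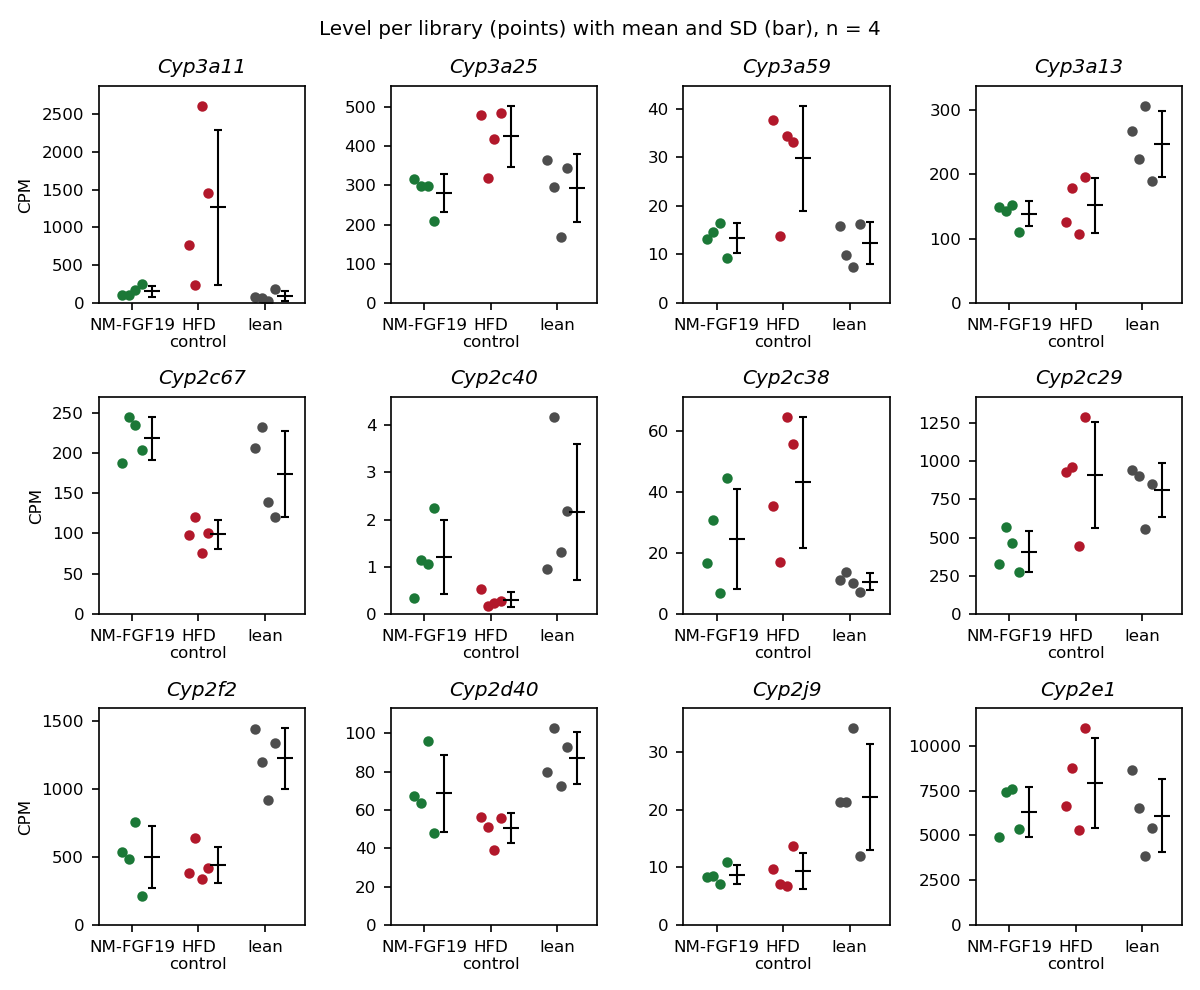
Level in CPM (y axis, from 0) of 12 P450 genes in each library (points) of the NM-FGF19, HFD control and lean groups (x axis), with the mean and SD of 4 libraries beside them. Cyp3a11 reaches 2610 CPM in HFD control 3, Cyp2c67 of NM-FGF19 lies above HFD control, and Cyp2f2 of lean livers lies above both HFD groups.

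Cyp2f2, which activates naphthalene and marks periportal hepatocytes in liver, was high in lean livers. It was at 539, 487, 760 and 211 CPM in NM-FGF19 livers, 383, 637, 340 and 417 CPM in HFD control livers and 1440, 1200, 922 and 1340 CPM in lean livers. Both HFD groups were below lean in every library and overlapped each other. Cyp2f2 fell with HFD control against lean (-1.47 ± 0.32, adjusted p = 0.0181), a call lost without HFD control 1 (0.056) or 3 (0.0572). NM-FGF19 against lean gave -1.30 ± 0.32 (adjusted p = 0.0661), and NM-FGF19 against HFD control 0.17 ± 0.32 (adjusted p = 0.944). Beside this, 1 of 6 other periportal markers fell with HFD control against lean (Cdh1, -1.43 ± 0.40, adjusted p = 0.0494) and 0 of 7 pericentral markers changed. The summed periportal level was 3920 to 7050 CPM in NM-FGF19, 3420 to 10700 CPM in HFD control and 6230 to 12400 CPM in lean livers. In whole liver, fewer cells of a type and less RNA per cell cannot be told apart.

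Cyp2j9 fell in both HFD groups against lean. It was at 8.25, 8.42, 7.19 and 11.0 CPM in NM-FGF19 livers, 9.63, 7.18, 6.83 and 13.7 CPM in HFD control livers and 21.3, 21.4, 34.2 and 11.9 CPM in lean livers. HFD control 4 was above lean 4, and all NM-FGF19 libraries were below all lean ones. The log2 change was -1.35 ± 0.30 for NM-FGF19 against lean (adjusted p = 0.0443) and -1.25 ± 0.29 for HFD control against lean (adjusted p = 0.0232). The first call held in 1 of 8 fits that left out a library of its groups, without lean 4, and otherwise the adjusted p was at most 0.113. The second was lost without HFD control 1 or 3 or lean 2 or 3 (at most 0.0709). The neighbours Cyp2j5, for an epoxygenase of arachidonic acid, and Cyp2j6 passed in none of the 3 comparisons. Cyp2j5 averaged 529 ± 43.6 CPM in NM-FGF19, 440 ± 83.9 CPM in HFD control and 508 ± 27.2 CPM in lean livers (SD, n = 4).

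Among 8 Cyp2d genes, counterparts of the human drug enzyme CYP2D6, 7 were tested and Cyp2d40 passed. Cyp2d40 was at 67.2, 63.8, 96.3 and 48.2 CPM in NM-FGF19 livers, 56.5, 51.2, 39.1 and 55.8 CPM in HFD control livers and 79.9, 103, 72.7 and 92.7 CPM in lean livers. Every HFD control library was below every lean one, and NM-FGF19 overlapped both. Cyp2d40 fell with HFD control against lean (-0.78 ± 0.20, adjusted p = 0.0281), a call lost without HFD control 1 or 3 or lean 2 or 4 (adjusted p up to 0.084). Summed over the subfamily, the level was 2160 to 2670 CPM in NM-FGF19, 2020 to 2590 CPM in HFD control and 1890 to 2940 CPM in lean livers. Cyp2d9, a male-specific testosterone 16-alpha hydroxylase, averaged 826 ± 131 CPM in NM-FGF19, 953 ± 160 CPM in HFD control and 998 ± 230 CPM in lean livers. Cyp2d10 averaged 390 ± 34.5 CPM in NM-FGF19, 372 ± 47.5 CPM in HFD control and 429 ± 55.6 CPM in lean livers (SD, n = 4). The reads of Cyp2d9, Cyp2d10 and Cyp2d11 overlap in 9.62%, 14.5% and 11.8% of windows.

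Among the Cyp2b genes, Cyp2b9, a female-predominant steroid hydroxylase of mouse liver, was at 23.5, 198, 6.55 and 91.3 CPM in NM-FGF19 livers and 1.32, 0.348, 18 and 42.4 CPM in HFD control livers. All 4 lean libraries held 0 counts, so every HFD library was above every lean one. With the lean sum set at the floor of 3 counts over the group, Cyp2b9 was at least 2370-fold higher in NM-FGF19 than in lean livers and at least 477-fold higher in HFD control than in lean livers. A large part of each limit came from 1 library: NM-FGF19 2 held 5157 of the 8813 NM-FGF19 counts and HFD control 4 held 1491 of the 2226 HFD control counts. Without them the limits were 1270-fold for NM-FGF19 and 208-fold for HFD control. The edgeR test did not pass (adjusted p = 0.0919 and 0.0856). DESeq2 gave 3.76e-10 and 4.05e-07, and edgeR without its robust option 0.0481 and 0.0464. Between NM-FGF19 and HFD control the log2 change was 2.37 ± 1.46 (adjusted p = 0.718). Cyp2b13 held 119 counts in NM-FGF19, 82 in HFD control and 0 in lean livers, at least 32-fold and 17.6-fold above lean, again with the floor over the group (adjusted p = 0.183 and 0.165). Without NM-FGF19 2 and HFD control 4 these limits were 15.6-fold and 5.37-fold. Cyp2b10, the textbook target of CAR, was nearly absent: it was at 0 to 0.136 CPM in NM-FGF19 livers and 0 to 0.175 CPM in lean livers. In HFD control livers it was at 0.158, 0.116, 0.534 and 5.57 CPM, the last in HFD control 4.

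The promoters of Cyp2b9 and Cyp2b13 are shown because the genes are neighbours with 0 counts in lean livers and unlike levels in the HFD groups. They are RefSeq sequences of GRCm38.p6 at chr7:26173159-26173408 (plus strand) and chr7:26061245-26061494 (plus strand), again the 250 bases before the start. Capitals mark the bases at which they differ.
Cyp2b9: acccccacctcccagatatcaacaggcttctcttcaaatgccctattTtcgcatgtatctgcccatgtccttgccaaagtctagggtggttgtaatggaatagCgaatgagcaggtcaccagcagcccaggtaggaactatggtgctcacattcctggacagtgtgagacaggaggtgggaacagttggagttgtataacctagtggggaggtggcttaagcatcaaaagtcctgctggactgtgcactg
Cyp2b13: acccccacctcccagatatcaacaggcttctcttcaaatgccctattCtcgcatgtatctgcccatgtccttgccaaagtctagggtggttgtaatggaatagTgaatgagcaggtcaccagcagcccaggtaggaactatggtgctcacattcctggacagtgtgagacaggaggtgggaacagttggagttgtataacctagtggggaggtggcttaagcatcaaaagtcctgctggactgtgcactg

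The windows are identical at 248 of 250 bases (99.2%). The substitutions are T48C and C104T, with the Cyp2b9 base first and positions counted from 1 at the 5′ end of the window. The transcripts are less alike as read-length windows: Cyp2b9 shares 1.07% of its windows with Cyp2b13. Cyp2b13 shares 9.13% of its windows with other transcripts, most of all with Gm45225, so part of its few reads may fit another gene as well.

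Cyp2b9 and Cyp2a4, a female-predominant testosterone 15-alpha hydroxylase, were high in the same libraries of the HFD groups. Cyp2a4 was at 1.43, 15.8, 0.903 and 20.8 CPM in NM-FGF19 livers, 2.24, 0.956, 10.1 and 3.83 CPM in HFD control livers and 2.19, 0.232, 0.204 and 0.349 CPM in lean livers. The adjusted p was 0.827 for NM-FGF19 against HFD control, 0.225 for HFD control against lean and 0.154 for NM-FGF19 against lean. Libraries 2 and 4 of NM-FGF19 and 3 and 4 of HFD control were the 2 highest of their group for both genes. In those libraries the summed level of 18 male-biased liver genes was 20100 and 15000 CPM in NM-FGF19 and 8180 and 10700 CPM in HFD control livers. The other NM-FGF19 libraries had 28300 and 33100 CPM and the other HFD control libraries 14900 and 30400 CPM. Lean livers had 36000 to 46500 CPM. Of the 18 male-biased genes 1 fell with HFD control against lean (Ugt2b38, -3.73 ± 0.98, adjusted p = 0.041) and 0 changed with NM-FGF19 against HFD control. Of 12 tested female-biased genes 1 rose and 1 fell with HFD control against lean, and their median log2 change was 0.89. The one that fell was Cyp17a1, for a steroid 17-alpha hydroxylase (-2.65 ± 0.67, adjusted p = 0.0355). The part of these genes in the Cyp2b9 and Cyp2a4 values was not tested. Other members did not go with Cyp2b9 and Cyp2a4 in HFD control against lean. The male-specific Cyp2d9 was at -0.07 ± 0.20 there (adjusted p = 0.871). Cyp2c40 and Cyp2c69 went the other way, at -2.79 ± 0.61 (adjusted p = 0.017) and -2.23 ± 0.84 (adjusted p = 0.121). Cyp2a4 shares 10.9% of its read-length windows with other transcripts, most of all with Cyp2a5. Cyp2a5 was far above Cyp2a4, with means of 489 CPM in NM-FGF19, 1040 CPM in HFD control and 450 CPM in lean livers. Part of the Cyp2a4 reads may therefore fit another gene as well, and the part of Cyp2a5 reads in the Cyp2a4 values was not tested.

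**Figure D5:**
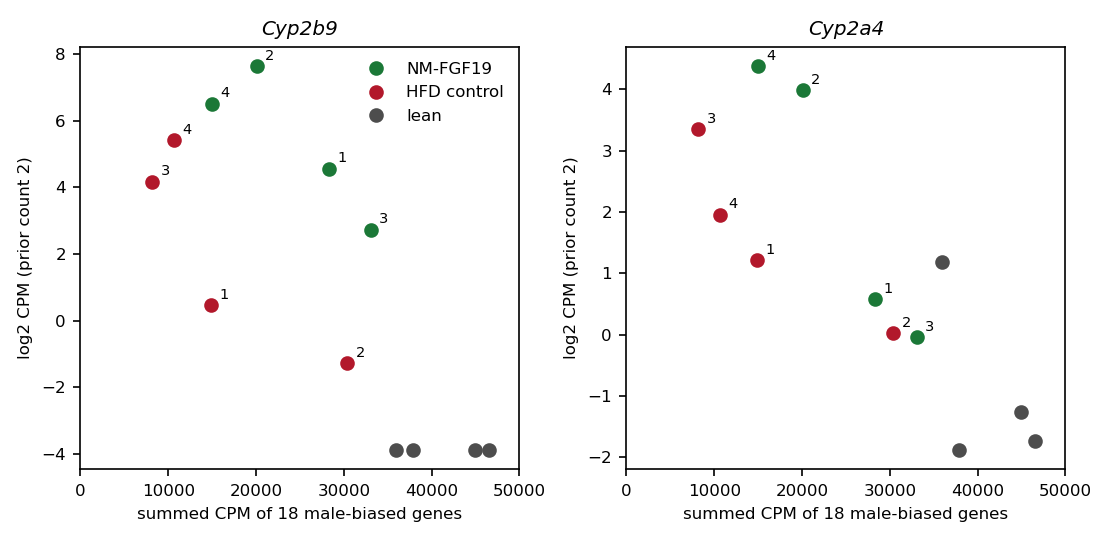
Log2 CPM with a prior count of 2 (y axis) of Cyp2b9 and Cyp2a4 against the summed level of 18 male-biased liver genes in CPM (x axis, 8180 to 46500 CPM), 1 point per library, with replicate numbers for NM-FGF19 and HFD control. The 4 lean libraries lie farthest right, and for Cyp2b9 they are the libraries with 0 counts.

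Cyp2a5, the coumarin hydroxylase of mouse liver, was at 279, 956, 462 and 258 CPM in NM-FGF19 livers, 1090, 578, 1000 and 1470 CPM in HFD control livers and 1080, 345, 88.7 and 282 CPM in lean livers. The lean libraries ran from the lowest level of all 12 libraries to 1080 CPM, and the log2 change of NM-FGF19 against HFD control was -1.08 ± 0.65 (adjusted p = 0.70). The highest library of each group was NM-FGF19 2, HFD control 4 and lean 1, and the same libraries led their groups for Cyp2c29, Cyp2c37, CAR (Nr1i3), P450 oxidoreductase (Por) and Dbp. Dbp encodes a clock output factor, and it was at 134 CPM in NM-FGF19 2, 92.1 CPM in HFD control 4 and 135 CPM in lean 1, with the lowest values of the groups at 35.5, 23.1 and 4.79 CPM. Of 10 clock output genes tested 0 changed in any of the 3 comparisons. These libraries were picked out after their values were seen, and the part of Dbp in the P450 values was not tested. Cyp2a12, a bile acid 7-alpha hydroxylase in mice, averaged 614 ± 148 CPM in NM-FGF19, 553 ± 68 CPM in HFD control and 663 ± 141 CPM in lean livers (SD, n = 4).

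Cyp1a2, which oxidises caffeine, averaged 452 ± 190 CPM in NM-FGF19, 427 ± 147 CPM in HFD control and 488 ± 125 CPM in lean livers (SD, n = 4), with overlapping ranges. Cyp1a1 was at 1.23, 0.538, 1.2 and 0.593 CPM in NM-FGF19 livers, 1.16, 1.74, 1.65 and 0.824 CPM in HFD control livers and 0.753, 0.65, 0.611 and 0.699 CPM in lean livers. HFD control was above lean in every library, without passing the test (0.98 ± 0.37, adjusted p = 0.122). Cyp1b1, which is mostly made outside hepatocytes, was highest in NM-FGF19 4 (4.88 CPM), HFD control 3 (6.16 CPM) and lean 3 (3.36 CPM). The same libraries had the highest sums of 5 stellate cell and fibroblast markers in their groups, at 748, 953 and 187 CPM, and this link was not tested.

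Cyp2u1 averaged 52.9 ± 24.5 CPM in NM-FGF19, 25 ± 9.4 CPM in HFD control and 42.3 ± 18.2 CPM in lean livers (SD, n = 4), and the log2 change of NM-FGF19 against HFD control was 1.08 ± 0.42 (adjusted p = 0.461). Cyp2r1 averaged 10.6 ± 1.72 CPM in NM-FGF19, 9.88 ± 1.95 CPM in HFD control and 13.2 ± 1.5 CPM in lean livers, and did not pass either. The other genes tested, Cyp2g1 of the olfactory mucosa and Cyp2s1 among them, passed in none of the 3 comparisons.

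Few of the genes that serve or control the P450 genes passed the test. Por was at 192, 341, 146 and 180 CPM in NM-FGF19 livers, 390, 463, 501 and 888 CPM in HFD control livers and 588, 175, 338 and 145 CPM in lean livers. NM-FGF19 was below HFD control in every library, but the test did not pass (-1.39 ± 0.44, adjusted p = 0.312). Of 12 electron donors and haem synthesis genes 0 changed with NM-FGF19 against HFD control or lean, and with HFD control against lean 1 fell, Cyb5r3, for a cytochrome b5 reductase (-0.60 ± 0.16, adjusted p = 0.0411). Of 19 xenobiotic receptors and liver factors 1 fell with HFD control against lean (Foxa3, -0.97 ± 0.26, adjusted p = 0.0396) and 0 changed in the other comparisons. Nr1i3 averaged 32.4 ± 12.3 CPM in NM-FGF19, 75.9 ± 43.1 CPM in HFD control and 32.3 ± 29.5 CPM in lean livers. Nr1i2 averaged 51.5 ± 4.32 CPM in NM-FGF19, 68.4 ± 16.7 CPM in HFD control and 54.8 ± 11.8 CPM in lean livers. Ahr averaged 38.6 ± 13.2 CPM in NM-FGF19, 48.6 ± 11.9 CPM in HFD control and 57.2 ± 34.5 CPM in lean livers (SD, n = 4).

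Target genes of CAR and PXR outside the P450 family were counted beside them, and the difference between the gene groups was not tested. With NM-FGF19 against HFD control 3 of 25 fell and 0 rose, with a median of -0.56. They were Ephx1, the microsomal epoxide hydrolase (-1.80 ± 0.25, adjusted p = 0.00786), Ces1g, a carboxylesterase (-1.72 ± 0.25, adjusted p = 0.00939), and the glutathione transferase gene Gsta2 (-3.91 ± 0.65, adjusted p = 0.0266), the last named after its value was seen. Ephx1 averaged 123 ± 31.2 CPM in NM-FGF19, 427 ± 161 CPM in HFD control and 207 ± 31.1 CPM in lean livers (SD, n = 4). With HFD control against lean 4 of 25 rose, with a median of 0.54: Ephx1, Abcc3 and, named after their values were seen, Abcb1a and Gsta1. Ephx1 was at 1.05 ± 0.25 (adjusted p = 0.0232) and Abcc3, a bile salt and conjugate exporter, at 2.23 ± 0.37 (adjusted p = 0.00772). With NM-FGF19 against lean 1 fell (Ces1g). Over all genes tested the medians of the 3 comparisons lay between -0.02 and 0.

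Markers of cell types moved beside these values. The summed level of 6 hepatocyte markers was 93700 to 142000 CPM in NM-FGF19, 54700 to 75700 CPM in HFD control and 85600 to 123000 CPM in lean livers, and with HFD control against lean 1 of the 6 fell. That of 5 stellate cell and fibroblast markers was 226 to 748 CPM in NM-FGF19, 353 to 953 CPM in HFD control and 142 to 187 CPM in lean livers, and 3 of the 5 rose with HFD control against lean. Of 7 Kupffer cell and macrophage markers 3 fell with HFD control against lean, Clec4f, Vsig4 and Timd4 of resident Kupffer cells, and 3 rose, Cd68, Gpnmb and Trem2. Their log2 changes ran from -5.50 for Timd4 to 7.22 for Gpnmb, and all 6 are named after their values were seen. The summed level of the 7 was 81.6 to 201 CPM in NM-FGF19, 107 to 293 CPM in HFD control and 248 to 324 CPM in lean livers. With HFD control against lean 1 of 4 T and B cell markers (Ptprc) and 1 of 4 endothelial markers (Pecam1) rose, and 1 of 4 bile duct markers (Sox9) fell. No marker of these 4 lists changed with NM-FGF19 against HFD control. Of 4 adipocyte markers only Cfd was tested, while Lep held 0 counts and Adipoq and Plin1 0 to 4 counts per group. Cfd fell with NM-FGF19 against HFD control (-6.94 ± 1.18, adjusted p = 0.0294) and rose with HFD control against lean (7.72 ± 1.31, adjusted p = 0.00848). The part of these markers in the P450 values was not tested.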

How the data were processed

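Liver sections from 12 mice were sequenced as poly(A) RNA. Per the labels' protocols, a stranded Illumina mRNA kit was used on 100 ng of total RNA, and pairs of 101-base reads were taken. The deposited values are raw counts per gene, which the authors obtained on build mm39. The tools listed are Trimmomatic, STAR and featureCounts, per the submitters' processing notes. The sources used here do not give versions, annotation, strand mode or how reads fitting several copies were handled. Of counts from 1 to 20, 68.9 to 71.5% were even in each library, and how the mates of a pair were counted is not given in the sources used here. All 12 columns were mapped by name, with 0 left over. Symbols were matched for 52083 of 55359 genes, and the others held 0.515% of counts.

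Genes passing filterByExpr (minimum count 10) entered the robust quasi-likelihood F test of edgeR 4.0.16 (R 4.3.3) on TMM-scaled counts, 2-sided, with all 12 libraries and group in one fit, and Benjamini-Hochberg adjustment over 15274 genes. Alternatives were DESeq2 1.42.0, limma 3.58.1 voom, other scalings, filters and fits, a replicate block and leaving out each library. Leaving out lean 3 and HFD control 3 together was added after seeing the data. The test was run on simulated data first. Log2 CPM used a prior count of 2. Shared sequence is the share of 101-base windows of the GENCODE transcript also found in transcripts of other genes, on build GRCm38, older than that of the counts. Windows were compared singly, without the mate of a pair, and no reads were examined.

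The members and gene lists were chosen with earlier results of these data known. Members named in full were up to 6 per direction and comparison among those called at a mean level of 2 CPM or more, and a fixed set of 24. From each list up to 3 called genes, and always Por, Nr1i2, Nr1i3, Ahr and Dbp, were named.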

Additional observations from a re-analysis of the deposited data

Results flagged for a closer look

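In 6 of 120 sets of 4 libraries, 1 library lay far from its group by Dixon's test on log2 CPM at the 95% level, and chance alone gives about 5%. In NM-FGF19 livers, Cyp2j6 was 85.5 CPM in library 4 against 77.7 to 78.6 CPM in the others, and Cyp3a25 was 208 CPM in library 4 against 299 to 315 CPM. Cyp2s1 was 0.0682 CPM in NM-FGF19 1, below the floor of 3 counts, against 0.527 to 0.568 CPM in the other NM-FGF19 libraries. In HFD control livers, Cyp3a59 was 13.7 CPM in library 2 against 33.2 to 37.7 CPM, and Cyp2c68 was 31.6 CPM in library 3 against 43.8 to 46.0 CPM. Cyp2c50 was 309 CPM in lean 3 against 543 to 572 CPM in the other lean libraries.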

How the results depend on the processing

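Set against their main values, 1520 values of named genes under an alternative kept their side of the threshold, 78 lost a call, 25 gained one and 0 reversed one. Most of these values were of genes not called in the main fit, and only a called gene could lose a call. The calls with HFD control against lean held in 9 (Cyp2c38) to 21 (Cyp3a11) of 22 alternatives. The Cyp2c67 call with NM-FGF19 against HFD control held in 12 of 22, and the Cyp2j9 call with NM-FGF19 against lean in 8. For NM-FGF19 against HFD control the counts of P450 genes called (1 higher, 0 lower) became 1 and 3 with DESeq2, 0 and 0 with library totals alone, and 0 and 1 without lean 3 and HFD control 3. Leaving out 1 library gave 0 to 1 higher and 0 to 2 lower. Among all genes tested the main 43 and 23 became 175 and 114 with DESeq2 and 26 and 30 with library totals alone. Without lean 3 and HFD control 3 they became 24 and 14. Leaving out 1 library gave 9 to 62 higher and 8 to 34 lower among all genes. For HFD control against lean the counts (3 and 5) became 5 and 8 with DESeq2, 1 and 5 with voom, 5 and 3 with library totals alone, 1 and 6 with no filter, 2 and 3 with only the compared groups in the fit, and 0 and 0 without lean 3 and HFD control 3. Leaving out 1 library gave 1 to 3 higher and 0 to 6 lower, the 0 without HFD control 3. Among all genes tested the main 770 and 502 became 1299 and 921 with DESeq2 and 601 and 457 with voom. They became 2381 and 228 with library totals alone and 735 and 344 with no filter. With only the compared groups they were 618 and 274, and without lean 3 and HFD control 3 they were 323 and 157. Leaving out 1 library gave 331 to 926 higher and 196 to 602 lower among all genes. For NM-FGF19 against lean the P450 counts (0 and 1) became 3 and 5 with DESeq2, 0 and 0 with voom or only the compared groups, 1 and 1 without the robust option, and 0 to 2 lower without 1 library. Among all genes tested the main 154 and 74 became 601 and 368 with DESeq2 and 62 and 44 with voom. They were 74 and 43 with only the compared groups and 169 and 78 without the robust option. Leaving out 1 library gave 24 to 92 lower among all genes. Fewer samples enter the fits that leave out libraries. Why the other alternatives differ was not tested. Library totals alone moved the median log2 change of all genes to -0.13, 0.29 and 0.17 in these 3 comparisons, and 5, 10 and 6 of 40 P450 genes changed sign with it, without a call in the new direction. The labels do not say that replicate numbers pair the libraries. The correlation of same-numbered deviations was between -0.36 and 0.07, which cannot exclude a pairing of small effect. With the replicate block the P450 counts were 0 and 0 for NM-FGF19 against HFD control, 1 and 2 for HFD control against lean, and 0 and 0 for NM-FGF19 against lean. Among all genes tested they were 12 and 6, 384 and 209, and 25 and 15 in that order. At a floor of 0.0792 to 0.153 CPM, differences among genes below it were not detectable.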

Other observations

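Alas1, the rate-limiting enzyme of haem synthesis, is named after its values were seen. It was at 58.6 to 140 CPM in NM-FGF19 livers, 157 to 580 CPM in HFD control livers and 61.5 to 537 CPM in lean livers. All 4 NM-FGF19 libraries lay below all 4 HFD control libraries, with a log2 change of -2.18 ± 0.62 that did not pass the test (adjusted p = 0.233 by edgeR). Alad, for the next enzyme of the pathway, was at 114 to 154 CPM in NM-FGF19 livers and 110 to 138 CPM in HFD control livers (adjusted p = 0.998).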
